A study of Mus musculus with 4 samples.

Results

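The neurotrophin genes Bdnf and Ntf3 and the neurotrophin receptor genes Ntrk2, Ntrk3, Ngfr and Sort1 were followed in RNA-seq libraries of iMOP cells, otic progenitors from the mouse inner ear that grow as an immortalized line. These 6 genes were chosen by name from the 49997 gene rows of each count file. The rule uses no measured value, but earlier results of these data were known when the genes were chosen. Neurotrophins are secreted growth factors that keep neurons alive and guide their axons. BDNF, the product of Bdnf, binds the receptor tyrosine kinase TrkB, encoded by Ntrk2, and neurotrophin-3, the product of Ntf3, binds TrkC, encoded by Ntrk3. The receptor encoded by Ngfr, also called p75, binds every neurotrophin, and together with sortilin, encoded by Sort1, it binds the uncleaved precursors. In the cochlea, hair cells and supporting cells supply BDNF and neurotrophin-3, and spiral ganglion neurons carry TrkB and TrkC and depend on both for survival.

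All libraries came from wild-type iMOP cells, with 2 libraries in each of 2 groups. The group labelled proliferating was grown in DMEM/F12 with N21 supplement, carbenicillin and 20 ng/ml bFGF, a growth factor that holds otic progenitors in division. The group labelled neuron was grown in Neurobasal medium with N21 supplement, L-glutamine and 1 µM K03861, which blocks CDK2, a kinase that drives cells into S phase. The libraries are called proliferating 1, proliferating 2, neuron 1 and neuron 2 after their labels. All came from 1 cell line, and the labels do not say that they came from separate cultures, so p-values measure only the spread between these libraries.

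Counts outside 7 genes set aside as ribosomal RNA or rRNA-like numbered between 292302 and 3241915 per library. Levels are given as CPM, the counts of a gene scaled to 1000000 of those counts. A gene at 0 counts could have had a level of up to 10.3 CPM in proliferating 1, 4.88 in proliferating 2, 0.925 in neuron 1 and 4.86 in neuron 2, taking 3 counts as the limit that a count of 0 allows. These limits and all intervals cover counting error only. The libraries also differed by number: across tested genes, the deviations of same-numbered libraries from their group means had a Pearson correlation of 0.69. Ratios of neuron over proliferating are therefore also given within each number. As sums over their lists, markers of division and of neurons ran against the labels, and those of otic progenitors ran with them. The summed level of 10 proliferation markers was 376 and 833 CPM in the libraries labelled proliferating and 2586 and 3070 CPM in those labelled neuron. Within both numbers, 8 of these 10 were higher in neuron, with 0.5 counts added. The 15 pan-neuronal markers summed to 2798 and 2615 CPM in proliferating and 1995 and 1238 CPM in neuron. Of the 11 tested, 7 were lower in neuron within both numbers, 2 were higher and 2 were opposite. Of all 11525 tested genes, 3448 were lower, 2877 higher and 5200 opposite. The 10 otic progenitor markers summed to 3544 and 7615 CPM in proliferating and 2690 and 1584 CPM in neuron. Vim alone had 2166 and 6153 CPM of these sums in proliferating and 1512 and 974 CPM in neuron. Of the 6 tested otic progenitor markers, 3 were lower in neuron within both numbers and 3 were opposite. The 10 spiral ganglion neuron markers summed to 267 and 303 CPM in proliferating and 306 and 181 CPM in neuron, so the groups overlapped. Of these, Calb2, Prox1 and Pou4f1 had the highest levels per length. In proliferating 1, proliferating 2, neuron 1 and neuron 2, Calb2 had 9, 0, 460 and 10 counts, or 30.8, 0, 142 and 16.2 CPM. In the same libraries Prox1 had 56, 66, 320 and 66 counts, or 192, 107.4, 98.7 and 106.8 CPM. Pou4f1 had 9, 89, 138 and 26 counts, or 30.8, 145, 42.6 and 42.1 CPM. Neurog1 and Isl1 were at 0 counts in every library, and Gata3 had at most 2. The 8 mesenchyme markers summed to between 115 and 431 CPM and the 8 immune cell markers to between 0 and 13.7 CPM. In bulk RNA, fewer cells of a type and less RNA per cell cannot be told apart.

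Of the ligands, Bdnf was detected at the edge of the depth and Ntf3 was not detected. Bdnf (chromosome 2, 109674700 to 109727007 in mm10, plus strand) had 0 counts in proliferating 1, 3 in proliferating 2, 7 in neuron 1 and 4 in neuron 2. Its level was 4.88 CPM in proliferating 2, 2.16 CPM in neuron 1 and 6.47 CPM in neuron 2. The deepest library gave the lowest of these levels, and the limit for proliferating 1 lay above all of them. Within the libraries numbered 2, the ratio of neuron over proliferating was 1.33, with a 95% exact interval of 0.224 to 9.05, so neither a rise nor a fall was detectable at this depth. No ratio is given within the libraries numbered 1, where the 7 counts of neuron 1 correspond to a level under the limit of proliferating 1.

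Ntf3 (chromosome 6, 126101412 to 126166910, minus strand) had 0 counts in all 4 libraries. Neuron 1 gave the tightest limit, 0.925 CPM. Ntf5, another neurotrophin gene, also had 0 counts in all 4 libraries.

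**Figure D1:**
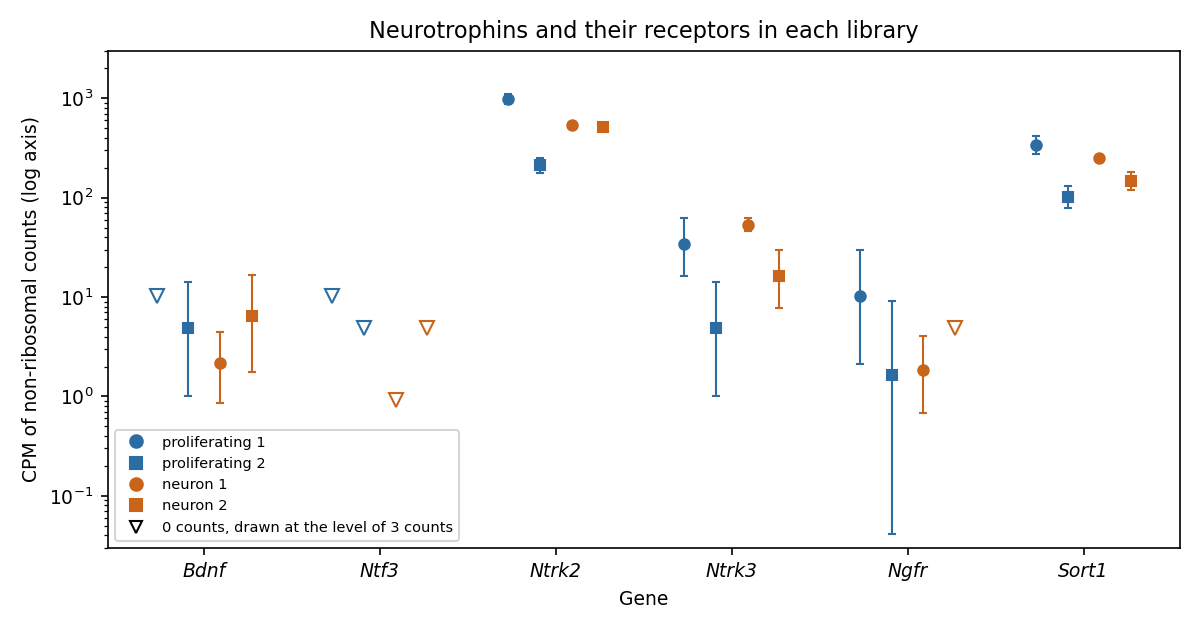
Level of each gene in each library, in CPM of non-ribosomal counts on a log axis. Filled symbols are measured levels with 95% exact Poisson intervals, and open triangles mark libraries with 0 counts, drawn at the level of 3 counts. For Ntrk2 and Sort1 both neuron libraries lie between the 2 proliferating libraries, and Ntf3 is at 0 counts throughout.

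Ntrk2, the TrkB receptor, was the member with the most counts in every library, and its neuron libraries lay between the proliferating libraries. Ntrk2 (chromosome 13, 58806569 to 59133970, plus strand) had 286 counts in proliferating 1, 130 in proliferating 2, 1739 in neuron 1 and 314 in neuron 2. Its level was 978 CPM in proliferating 1, with a 95% interval of 868 to 1099, and 212 CPM (177 to 251) in proliferating 2. In the neuron libraries it was 536 CPM (511 to 562) and 508 CPM (454 to 568). The proliferating libraries thus differed 4.62-fold from each other (3.75 to 5.74), while the neuron libraries differed 1.06-fold (0.935 to 1.19). Such a gap between the proliferating libraries was not unusual, as 29.5% of tested genes had a larger one. Between the neuron libraries, 96.8% of tested genes had a larger gap than Ntrk2. Group means were 595 ± 542 CPM (SD, n = 2) for proliferating and 522 ± 20.0 CPM (SD, n = 2) for neuron.

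Within each library number Ntrk2 went in opposite directions. In the libraries numbered 1 it was 1.82-fold lower in neuron (95% exact interval 1.60 to 2.07), and in those numbered 2 it was 2.40-fold higher in neuron (1.95 to 2.97). Both intervals exclude equal levels, but each compares 1 library with 1 library and not the conditions. Of all 11525 tested genes, 16.2% were lower in neuron 1 than in proliferating 1 and higher in neuron 2 than in proliferating 2, and for 18.9% both neuron libraries lay between the proliferating ones. The gene count pools the full-length receptor with the isoforms that lack the kinase domain, which glial cells are known to make. GENCODE M21 lists 10 transcripts of Ntrk2, 7 of them protein-coding, and the gene counts do not separate them.

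The glial markers differed in their order over the libraries. Gfap, the intermediate filament of astrocytes, chosen after its values were seen, had 91, 7, 232 and 13 counts in proliferating 1, proliferating 2, neuron 1 and neuron 2. Its level was 311 and 11.4 CPM in the proliferating libraries and 71.6 and 21 CPM in the neuron libraries. Like Ntrk2, Gfap was thus highest in proliferating 1 and lowest in proliferating 2. For 18.9% of all tested genes both neuron libraries lay between the proliferating ones. The whole list of 12 glial and Schwann cell markers did not follow the order of Gfap, with summed levels of 1204 and 1452 CPM in proliferating against 309 and 354 CPM in neuron. Of its 6 tested genes, 3 were lower in neuron within both numbers and 3 went in opposite directions, with 0.5 counts added. Cnp had the order of Gfap. Pmp22 had the reverse order, with 6.84 and 50.5 CPM in proliferating and 12.3 and 16.2 CPM in neuron. The 3 with the highest level per length, Fabp7, Olig2 and Olig1, were lower in neuron within both numbers. Fabp7 had 325 and 1011 CPM in proliferating and 99.0 and 286 in neuron, Olig2 233 and 273 against 37.0 and 11.3, and Olig1 181 and 96.0 against 50.3 and 4.86. In edgeR with a term for the library number, Olig2 (adjusted p = 0.0014) and Olig1 (0.049) were called and Fabp7 was not. Sox10, the defining factor of Schwann cells, was at 0 counts in every library, and the myelin gene Mbp had at most 2. The part of glial RNA in the Ntrk2 levels was not tested.

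Ntrk3, the TrkC receptor, was higher in neuron within both numbers, by ratios whose counting intervals include equal levels. Ntrk3 (chromosome 7, 78175959 to 78738012, minus strand) had 10 counts in proliferating 1, 3 in proliferating 2, 173 in neuron 1 and 10 in neuron 2. Its level was 34.2 CPM in proliferating 1, 4.88 in proliferating 2, 53.4 in neuron 1 and 16.2 in neuron 2. The groups overlapped, since neuron 2 lay below proliferating 1. In the libraries numbered 1 Ntrk3 was 1.56-fold higher in neuron (95% exact interval 0.828 to 3.31), and in those numbered 2 it was 3.31-fold higher (0.854 to 18.7). Of all tested genes, 26.4% were higher in neuron within both numbers. Group means were 19.5 ± 20.7 CPM (SD, n = 2) for proliferating and 34.8 ± 26.3 CPM (SD, n = 2) for neuron.

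Ngfr, the shared neurotrophin receptor that progenitors and Schwann cells are known to express, had 10 counts over all 4 libraries. Ngfr (chromosome 11, 95568818 to 95587735, minus strand) had 3 counts in proliferating 1, 1 in proliferating 2, 6 in neuron 1 and 0 in neuron 2. Its level was 10.3 CPM in proliferating 1, 1.63 CPM in proliferating 2 and 1.85 CPM in neuron 1, with a limit of 4.86 CPM in neuron 2. In the libraries numbered 1 the ratio of neuron over proliferating was 0.180, with a 95% exact interval of 0.0385 to 1.11. In those numbered 2 both libraries were under the limit, and no ratio is given.

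Sort1, the sorting receptor that binds neurotrophin precursors, had the same order of libraries as Ntrk2. Sort1 (chromosome 3, 108284082 to 108361511, plus strand) had 99 counts in proliferating 1, 63 in proliferating 2, 811 in neuron 1 and 91 in neuron 2. Its level was 339 and 103 CPM in the proliferating libraries and 250.2 and 147 CPM in the neuron libraries. Both neuron libraries again lay between the proliferating ones. Sort1 was 1.35-fold lower in neuron in the libraries numbered 1 (95% exact interval 1.09 to 1.67) and 1.44-fold higher in those numbered 2 (1.03 to 2.01). Group means were 221 ± 167 CPM (SD, n = 2) for proliferating and 199 ± 72.7 CPM (SD, n = 2) for neuron.

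**Figure D2:**
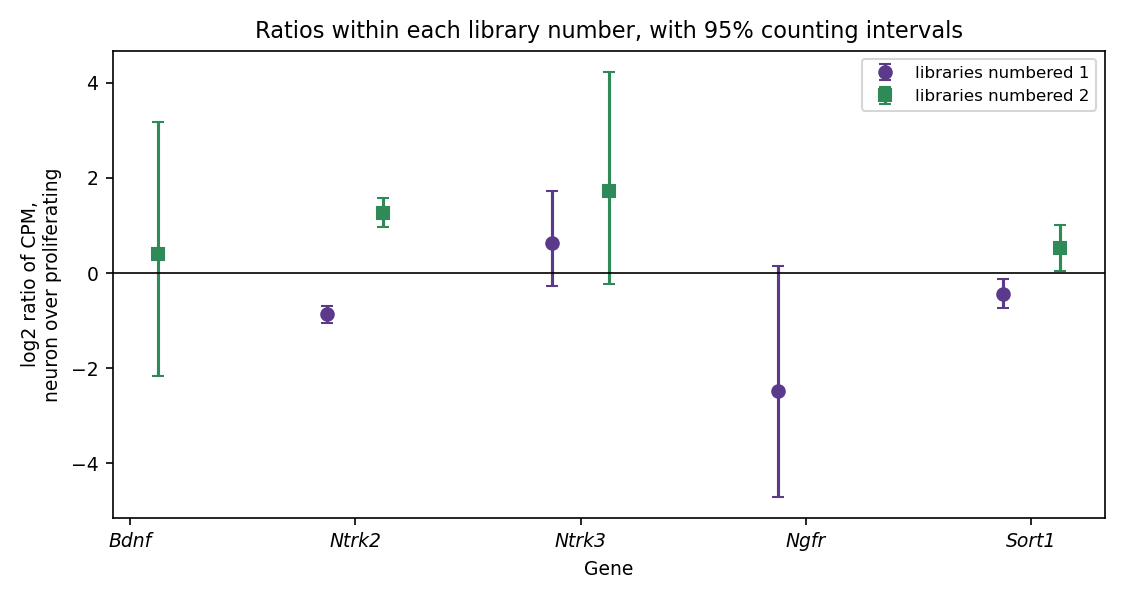
Log2 ratio of CPM, neuron over proliferating, within the libraries numbered 1 (circles) and those numbered 2 (squares), with 95% exact counting intervals. Ntrk2 and Sort1 lie below 0 in the libraries numbered 1 and above 0 in those numbered 2, and the intervals of Ntrk3, Ngfr and Bdnf include 0. Ratios are left out where a library had 0 counts, so Ntf3 is absent.

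None of the members passed the test between the groups. Of the 6 members, Ntrk2, Ntrk3 and Sort1 had enough counts to be tested, and Bdnf, Ntf3 and Ngfr did not. In edgeR's quasi-likelihood test with group alone, Benjamini-Hochberg adjusted over 11525 genes, 0 of these 3 members were called, as were 0% of all tested genes, of which 130 had an unadjusted p under 0.05. DESeq2 called 0 genes as well, with 191 under that unadjusted p, and none of the members was among those under it in either tool. The log2 fold change of Ntrk2, neuron over proliferating, was 0.02 (SE 1.05, 95% interval -2.26 to 2.30, adjusted p = 1.00 in edgeR). That of Sort1 was -0.01 (SE 0.98, interval -2.13 to 2.12, adjusted p = 1.00 in edgeR). That of Ntrk3 was 1.01 (SE 1.28, interval -1.76 to 3.78, adjusted p = 1.00 in edgeR). These intervals allow changes of more than 4-fold in either direction for Ntrk2 and Sort1. The sign for Ntrk2 depended on single libraries, at 1.24 without proliferating 1 and -0.70 without proliferating 2. That of Sort1 was 0.85 without proliferating 1 and -0.63 without proliferating 2, and that of Ntrk3 was 2.67 and 0.10. With a term for the library number added, edgeR called 57 genes, or 0.495% of those tested, and again 0 of the 3 members. No tested member had groups that did not overlap, while both neuron libraries lay above both proliferating ones for 13.2% of all tested genes and below them for 7.46%.

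The balance between receptors can be read inside each library without scaling. In proliferating 1, Ntrk3 made up 3.38% of the Ntrk2 and Ntrk3 counts (95% Clopper-Pearson interval 1.63 to 6.13), and in proliferating 2 its share was 2.26% (0.468 to 6.45). Its share reached 9.05% (7.80 to 10.4) in neuron 1 but only 3.09% (1.49 to 5.60) in neuron 2. The interval of neuron 1 lay above those of the other libraries, and neuron 2 lay within the range of the proliferating libraries. The share averaged 2.82% ± 0.794 (SD, n = 2) in proliferating and 6.07% ± 4.22 (SD, n = 2) in neuron, a difference that a two-sided exact permutation test did not separate from the spread (p = 0.667). With 2 libraries against 2, the smallest p this exact test can give is 0.333.

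The Sort1 share of the Sort1 and Ntrk2 counts ranged from 22.5% to 32.6% over the libraries. It was 25.7% (21.4 to 30.4) in proliferating 1 and 32.6% (26.1 to 39.7) in proliferating 2. For neuron 1 it was 31.8% (30.0 to 33.7), and for neuron 2 it was 22.5% (18.5 to 26.9), with intervals that did not overlap. The groups overlapped (two-sided exact permutation p = 0.667, n = 2 per group). Ngfr made up 1.04%, 0.763% and 0.344% of the Ngfr and Ntrk2 counts in proliferating 1, proliferating 2 and neuron 1, and 0 of 314 in neuron 2, which allows a share of up to 0.955%. The limit of neuron 2 lies above the share of proliferating 2, which rests on 1 count, so an order of the groups was not detectable at this depth (two-sided exact permutation p = 0.333, and 0.667 after Benjamini-Hochberg adjustment over the 3 shares, n = 2 per group).

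**Figure D3:**
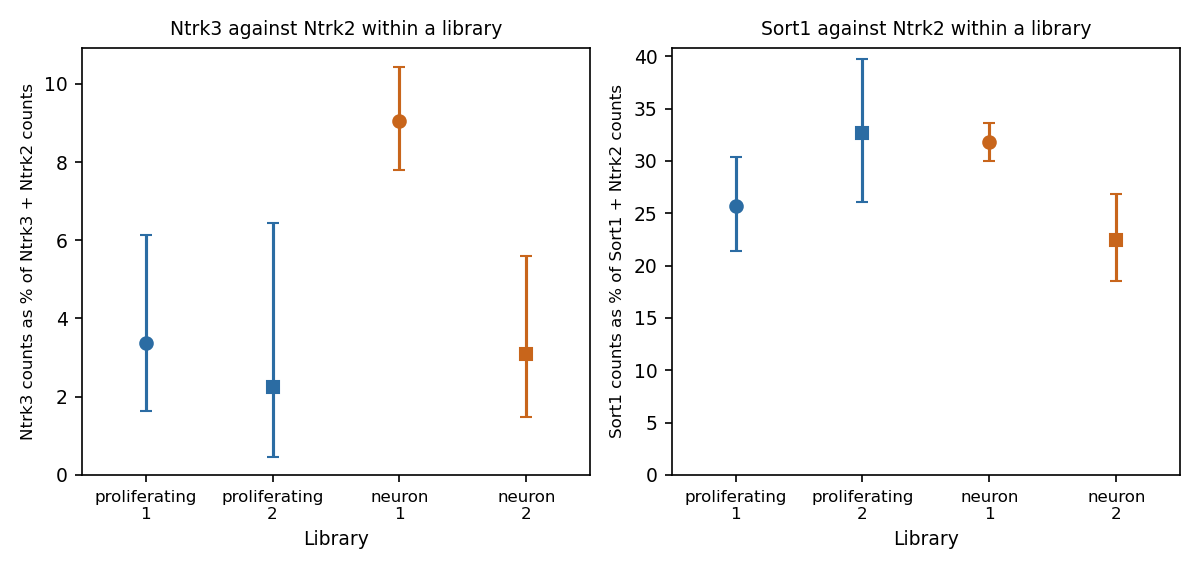
Ntrk3 counts as a percentage of Ntrk3 and Ntrk2 counts (left) and Sort1 counts as a percentage of Sort1 and Ntrk2 counts (right) in each library, with 95% Clopper-Pearson intervals. The Ntrk3 share is 9.05% in neuron 1 and between 2.26% and 3.38% in the other 3 libraries, while the Sort1 shares range from 22.5% to 32.6%.

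Per length of gene, Sort1 and Ntrk2 were the most abundant members in every library, and the order between them depended on the length used. The deposited RPKM values imply a length of 35.5 kb for Ntrk2 and 7.16 kb for Sort1, while the exons of Ntrk2 in GENCODE M21 cover 19.3 kb and its longest transcript has 8744 bases. With the implied lengths, in CPM per kb, Sort1 was at 47.3, 14.3, 34.9 and 20.6 in proliferating 1, proliferating 2, neuron 1 and neuron 2, and Ntrk2 at 27.6, 5.96, 15.1 and 14.3. Sort1 was then 1.44 to 2.40 times as abundant as Ntrk2, and every interval excluded equal levels. With the longest transcripts Ntrk2 was the higher gene in all 4 libraries, and Sort1 was 0.371 to 0.620 times as abundant. The exon union gave ratios of 0.739 to 1.24, on both sides of equality. Ntrk3 lay far below both, at 1.64, 0.234, 2.56 and 0.777 with the implied length. Among the genes detected in each library, ranked by this level, Sort1 stood in the top 7.89%, 26.3%, 8.62% and 16.7%, and Ntrk2 in the top 15.5%, 44.5%, 20.4% and 22.7%. Ngfr at 3.01 in proliferating 1 and 0.543 in neuron 1, and Bdnf at 0.322 in neuron 1 and 0.964 in neuron 2, rest on 7 counts or fewer, so their order relative to Ntrk3 in those libraries is uncertain, except in neuron 1, where Ntrk3 was the higher gene.

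Transcripts of other genes overlap some members. Exons of Bdnf, Ntrk2 and Sort1 overlap an annotated antisense gene in GENCODE M21 (Gm45346, 4930415C11Rik and Gm12523), and the strand setting of the counting is not given in the sources used here. Gm39038, annotated as intronic on the strand of Ntrk3, also reaches an annotated Ntrk3 exon. It had a row of its own, with 1, 0, 6 and 3 counts. No annotated gene overlaps Ngfr or Ntf3.

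Among the other receptors of the family, Sorl1 and Sorcs1 were the tested genes, and both neuron libraries lay above both proliferating ones for each, as they did for 13.2% of all tested genes. Sorl1, a sorting receptor related to sortilin, was counted 1 and 2 times in proliferating and 139 and 13 times in neuron, or 3.42, 3.25, 42.9 and 21 CPM. It was 12.5-fold higher in neuron in the libraries numbered 1 (95% exact interval 2.21 to 499) and 6.46-fold higher in those numbered 2 (1.46 to 59.0). Both proliferating counts of Sorl1 lay under the limit of 3 counts, so the size of its ratios is uncertain. Its log2 fold change was 3.25 (SE 1.42, adjusted p = 1.00 in edgeR), and with the library-number term 3.17 (adjusted p = 0.212 in edgeR), so it did not pass either test. Sorcs1, a brain-expressed relative of sortilin, was counted 2, 4, 37 and 12 times, or 6.84, 6.51, 11.4 and 19.4 CPM, with a log2 fold change of 1.31 (adjusted p = 1.00 in edgeR). Its ratio was 1.67 within the libraries numbered 1 (95% exact interval 0.430 to 14.3) and 2.98 within those numbered 2 (0.904 to 12.7). Both intervals include equal levels, and the 2 counts of proliferating 1 lay under the limit of that library. Sorcs2 had 0, 0, 28 and 1 counts and Sorcs3 had 1, 0, 10 and 1. Nradd, a relative of Ngfr, was at 0 counts throughout.

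Every listed signalling gene downstream of the Trk receptors had counts in at least 1 library, and none was called. Of 38 adaptors and kinases, 36 were tested and 0 were called with group alone or with the library-number term, with a median log2 fold change of -0.07 against 0.09 over all tested genes. With 0.5 counts added, 6 of the 36 were higher in neuron within both numbers, 13 were lower and 17 were opposite, against 2877, 3448 and 5200 of all 11525 tested genes. Among those with the highest level per length were the MAP kinase Mapk3 (log2 fold change -0.72) and the survival kinase Akt1 (-0.22). Of 14 partners and effectors of the Ngfr receptor, 13 were tested and 0 called, with a median of 0.07. The most abundant were the small GTPase Rhoa (-0.94), its inhibitor Arhgdia (0.02) and the adaptor Maged1 (-0.61).

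Genes that cut or release neurotrophins were also present without a called change. Of 14 processing genes 11 were tested, with 0 called and a median log2 fold change of 0.35. The most abundant were Cpe (0.40), a carboxypeptidase that sorts BDNF into secretory vesicles, Adam10 (0.35), a sheddase, and Plat (-0.74), the tissue plasminogen activator that yields plasmin, which cleaves the BDNF precursor. Furin, the convertase of the Golgi that cleaves neurotrophin precursors, had 17 and 4 counts in proliferating and 187 and 3 in neuron. Its level was 58.2 and 6.51 CPM in proliferating against 57.7 and 4.86 CPM in neuron. The convertase Pcsk2 and the protease Mmp9 were at 0 counts in every library.

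No gene of the list induced by neurotrophins and neuronal activity was called. Of 12 response genes 9 were tested and 0 called, with a median of -0.78 against 0.09 over all tested genes. The transcription factors Egr1, Fos and Junb, the most abundant, had log2 fold changes of -0.62 (SE 0.98), -1.79 (SE 1.24) and -0.82 (SE 1.35). Egr1 had 68 and 59 counts in proliferating and 232 and 70 in neuron, and its ratios were 0.308 within the libraries numbered 1 (95% exact interval 0.234 to 0.409) and 1.18 within those numbered 2 (0.823 to 1.70). Fos had 30, 9, 46 and 9 counts, and its ratios were 0.138 (0.0854 to 0.227) and 0.994 (0.350 to 2.83).

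**Figure D4:**
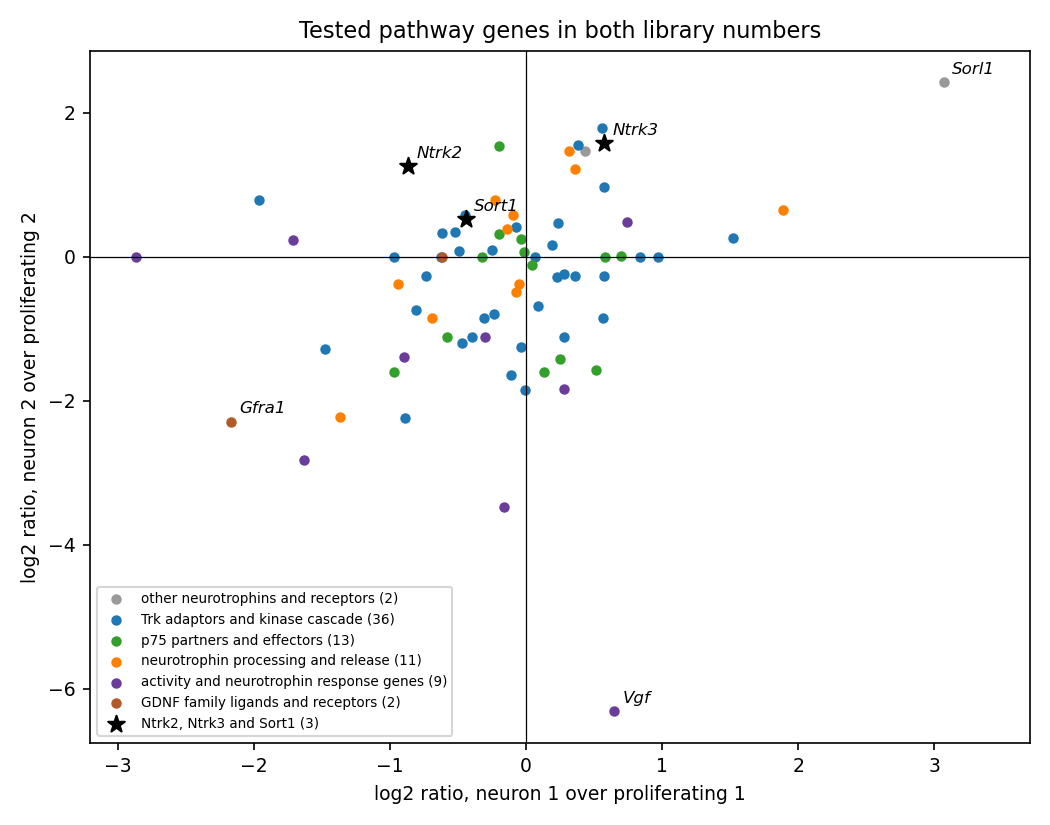
Log2 ratio of neuron over proliferating in the libraries numbered 1 (horizontal) and in those numbered 2 (vertical), with 0.5 counts added, for every tested gene of the pathway lists. Ntrk2 and Sort1 lie at the upper left, lower in neuron in the first pair and higher in the second, Ntrk3 and Sorl1 lie at the upper right, and the number of tested genes per list is in the legend.

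The genes with a pattern most like that of a member were found over the 4 libraries by the distance between centred log2 CPM values, among 10228 tested genes. For Ntrk2 these were Nxpe3, Morn1 and Fam120c, at distances of 0.17, 0.19 and 0.19, and for Sort1 they were Zfp28, Dnajc18 and Rrnad1, at 0.08, 0.09 and 0.09. Ntrk2 and Sort1 were themselves 0.61 apart, and 114 genes were nearer to Ntrk2 than Sort1 was. Of these 6 neighbours, 4 had under 10 counts in at least 1 library, and 4 libraries leave many genes with a similar pattern by count alone. No likeness was computed for Ntrk3, Ngfr, Bdnf and Ntf3, which had under 10 counts in at least 1 library.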

How the data were processed

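RNA was measured in 4 libraries. Per the labels' protocols, DNase-treated total RNA was depleted of ribosomal RNA and made into stranded libraries. The build was mm10 and the tools were featureCounts, HISAT2, SAMtools and DESeq2, per the submitters' processing notes; versions, settings and annotation are not given in the sources used here. The authors deposited raw counts per gene and RPKM values. The deposited RPKM used library totals with ribosomal RNA, since 1 gene length per gene fitted all libraries (17709 of 17709 genes with values in several libraries, relative tolerance 0.001).

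Raw counts of all genes, ribosomal RNA included, were fitted with edgeR 4.0.16 (quasi-likelihood, TMM, filterByExpr, R 4.3.3) with a threshold of 0.05 on Benjamini-Hochberg adjusted p. CPM used totals without 7 ribosomal RNA and rRNA-like genes. Ratios within a number have exact binomial intervals. Alternatives used limma 3.58.1 and DESeq2 1.42.0. Positions are from GENCODE M21. The members, the gene lists and the tests were chosen with earlier results of these data known. The naming rule took all members, the listed other neurotrophins and receptors and, of each pathway list, the 3 genes with the highest level per length and any called gene; some of these are not reported here. Marker lists are given as sums over their genes, some with counts of genes by direction. Of the spiral ganglion neuron and glial lists, the 3 genes with the highest level per length and those at 0 counts are also named. Vim, the highest of the otic progenitor list, is named as well. Furin, Pcsk2, Mmp9, Gata3, Gfap, Cnp, Pmp22, Mbp, Vgf, Ret, Gdnf, Pspn, Gfra2 and Gfra3 fall outside the naming rule and were named after their values were seen.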

Additional observations from a re-analysis of the deposited data

How the results depend on the processing

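The count of called genes was 0 in every fit with group alone, and 57 with the replicate block, 87 with the block and the ribosomal RNA genes set aside and 67 with the block and DESeq2 size factors; no member was called in any of these fits. These counts of 0 do not show stability, as 2 libraries per group left wide intervals. The replicate numbers are shared labels only, with a correlation of 0.69 between same-numbered deviations. With the replicate block the log2 fold changes were 0.28 for Ntrk2, 1.14 for Ntrk3 and 0.13 for Sort1 (adjusted p = 0.997, 0.891 and 0.997 in edgeR).

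The sign of Ntrk2 turned to -0.090 with DESeq2 size factors, -0.16 with upper-quartile scaling, -0.069 with the ribosomal RNA genes set aside and -0.070 in DESeq2, and leaving out single libraries gave -0.70 to 1.24. That of Sort1 turned to 0.29 with library totals alone, 0.0099 with no filter, 0.15 with limma voom, 1.03 on log2(RPKM + 0.1) and 0.46 on log2(RPKM + 1); with the block it was 0.13, with the ribosomal RNA genes set aside as well 0.048 and with DESeq2 size factors 0.0062, and leaving out single libraries gave -0.63 to 0.85. The value of Ntrk3 stayed positive, with 0.05 to 2.67 when single libraries were left out. The cause of these changes was not tested. On log2(RPKM + 0.1) the median of all genes was 0.74, and with library totals alone it was 0.86.

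With library totals that include ribosomal RNA, the within-number log2 ratios of Ntrk2 were -0.52 and 3.25 in place of -0.87 and 1.26, and those of Sort1 were -0.088 and 2.51 in place of -0.44 and 0.52. This follows from the share of counts in the 7 genes set aside. That share was 90.7% in proliferating 1, 88.2% in neuron 1, 98.1% in proliferating 2 and 92.6% in neuron 2. The opposite directions held with centring on the median of all tested genes and with a GC correction added after the data were examined, at -0.91 and 1.45 for Ntrk2 and -0.42 and 0.84 for Sort1. Depth limited Bdnf, Ntf3 and Ngfr most, which had too few counts for the test.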

Other observations

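The GDNF family, the other group of trophic factors that acts on cranial sensory neurons, was also sparse. Its ligands Gdnf and Pspn and its co-receptors Gfra2 and Gfra3 had 0 counts in all 4 libraries, Nrtn had 5 counts in neuron 1 only, and the signalling receptor Ret had 4 counts in neuron 1 only. Gfra1, the co-receptor for GDNF, had 9 and 36 counts in proliferating and 23 and 7 in neuron, or 30.8 and 58.6 CPM against 7.09 and 11.3 CPM, so the groups did not overlap. The ratios of neuron over proliferating were 0.230 within the libraries numbered 1 (95% exact interval 0.103 to 0.566) and 0.193 within those numbered 2 (0.0726 to 0.441). The log2 fold change was -2.24 (adjusted p = 1.00 in edgeR) with group alone and -2.13 (adjusted p = 0.357 in edgeR) with the library-number term, so it did not pass the test. Both neuron libraries lay below both proliferating ones for 7.46% of all tested genes. The counts of Gfra4 were 4, 1, 32 and 1, with a log2 fold change of -0.12.

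Vgf, a secreted neuropeptide precursor of neurons, chosen after its values were seen, had 2 and 39 counts in proliferating 1 and proliferating 2 and 43 and 0 in neuron 1 and neuron 2. Its level was 6.84 and 63.5 CPM in the proliferating libraries and 13.3 CPM in neuron 1, with a limit of 4.86 CPM in neuron 2. The 2 counts of proliferating 1 lay under the limit of that library. The log2 fold change of Vgf was -2.47 (adjusted p = 1.00 in edgeR).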
